A study of Caenorhabditis elegans with 2 samples.

Results

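Of 2010 chromatin immunoprecipitation peaks of the tagged protein ZFP-3 in Caenorhabditis elegans larvae, 344 (17.1%, exact binomial 95% interval 15.5 to 18.8) had their summit in an exon and away from annotated gene starts. A peak was included when its summit, the base of strongest signal, lay in an exon of a protein-coding gene, more than 100 bp from any tRNA gene, and outside a promoter window. That window ran from 1000 bp upstream to 200 bp downstream of the 5′ end of every protein-coding gene. Of the 478 exonic summits in the list, 127 fell in such a window and a further 7 lay near a tRNA gene, which left the 344. Intervals cover counting error only, since peaks of 1 list are not replicates.

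The animals were whole L4 larvae aged 48 h of strain RW12271. The allele st12271 on chromosome X fuses zfp-3 to TY1, EGFP and 3xFLAG tags (zfp-3::TY1::EGFP::3xFLAG). The animals had been synchronized by starvation at the L1 stage after bleaching. The tags had been inserted at zfp-3 with CRISPR, and the description of the samples names an anti-GFP antibody, while the antibody label itself reads zfp-3. Both samples, biological replicates 1 and 2, carried the tag, and there was 1 group, so no condition is compared. Whole animals mix all tissues, so a peak cannot be assigned to a cell type, and no untagged or input library was analysed here. The labels call the replicates biological and do not say from which cultures they came.

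ZFP-3 is named as a zinc finger protein, a class in which short zinc-binding folds contact DNA bases, and such proteins are best known from promoters and enhancers. Exon sequence is constrained by the protein code, and the 3′ untranslated region (3′ UTR) carries signals for cleavage and regulation of the messenger RNA. Genes of this nematode are packed closely, so that an exon of one gene often lies beside the end of the next. Many of its messages are trans-spliced, so an annotated 5′ end need not be the start of transcription.

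The first set below shows 29 bases centred on the summit, in capitals, of 5 of the strongest exonic peaks, as the sites on which the highest values below rest. Bases are from the RefSeq genome WBcel235 and are written 5′ to 3′ on the strand of the host gene.
dos-3, coding sequence, chrIII:835964-835992, minus strand: tgctaacaaatactAttatcacccggaat
F57F5.3, coding sequence, chrV:12004721-12004749, minus strand: tgattttgttcttaTgatgcagtatctac
stdh-1, coding sequence, chrV:13907892-13907920, plus strand: ttttgttatcgacaGatccattaagcaaa
nra-1, 3′ UTR, chrIV:17281539-17281567, minus strand: attatttcgcttttTaaaagctttccgat
C34C12.2, 5′ UTR, chrIII:3456408-3456436, plus strand: tgcagactttttgcGcgatgcaagcgcgc

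The second set shows exonic peaks that hold one of 3 overlapping 6-base words, or its reverse complement, that are common across the whole list of peaks. They are AGACGC, that word moved on by 1 base as GACGCA, and that word moved on by 2 bases as ACGCAG. Capitals mark the words, and the distance is from the summit to the middle of the stretch, positive in the direction of the host gene.
M01H9.3, 5′ UTR, chrIV:4469948-4469976, minus strand, 14 bp: tgttgtgctctAGACGCAGacatggaagg
C05D11.8, 3′ UTR, chrIII:6421213-6421241, minus strand, 32 bp: tgacgccgtggAGACGCAGacagtgaggg
drap-1, 5′ UTR, chrV:9731456-9731484, plus strand, 30 bp: cgaatcgacacGACGCAGaatggaataaa
vang-1, 3′ UTR, chrX:2890484-2890512, plus strand, 2 bp: tctctatcgcgCTGCGTCacttacttctt
glb-15, coding sequence, chrV:11617008-11617036, minus strand, -5 bp: taccgtttcatTGCGTCTcgctcaaaacg

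Most exonic peaks lay in coding sequence, but per base the untranslated regions held more of them. Coding sequence held 236 of the 344 summits (68.6%, 63.4 to 73.5), the 3′ UTR 80 (23.3%, 18.9 to 28.1) and the 5′ UTR 21 (6.10%). The other 7 lay in exons of noncoding transcripts of protein-coding genes, and 5 of those were in tos-1. Coding sequence made up 86.8% of the 23.1 Mb of exon sequence that met the same rule, the 3′ UTR 10.2% and the 5′ UTR 2.42%. The density was thus 11.7 peaks per Mb in coding sequence, 33.7 in the 3′ UTR and 37.5 in the 5′ UTR, against 14.9 for all eligible exons and 20.05 for the whole list over the genome.

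The exonic peaks had a lower median signal than the list as a whole. The signal, the authors' deposited strength of a peak, had a median of 70.95 with quartiles of 58.07 and 90.6, and ranged from 2.00 to 452. The median of all 2010 peaks was 82.3, that of promoter-window peaks 88.45 and that of intronic peaks 73.7. Coding-sequence peaks had a median of 71.1, 5′ UTR peaks 80.0 and 3′ UTR peaks 67.2. Among the 20 strongest peaks of the list 2 were exonic, and among the strongest 500 there were 55. Some of the weakest values belonged to summits close to another peak: 39 exonic summits lay within 250 bp of a stronger summit, with a median signal of 21.7, and 23 of the 24 exonic peaks with a signal under 25 were among them. Without these 39, the median was 72.8. The same exclusion over the whole list left 1867 of the 2010 peaks. The exonic median was then 0.858 of the median of those left, against 0.862 before. At such close summits the overlapping peak of a single library can be the same for both, as at the 2 summits of suro-1, 199 bp apart.

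**Figure D1:**
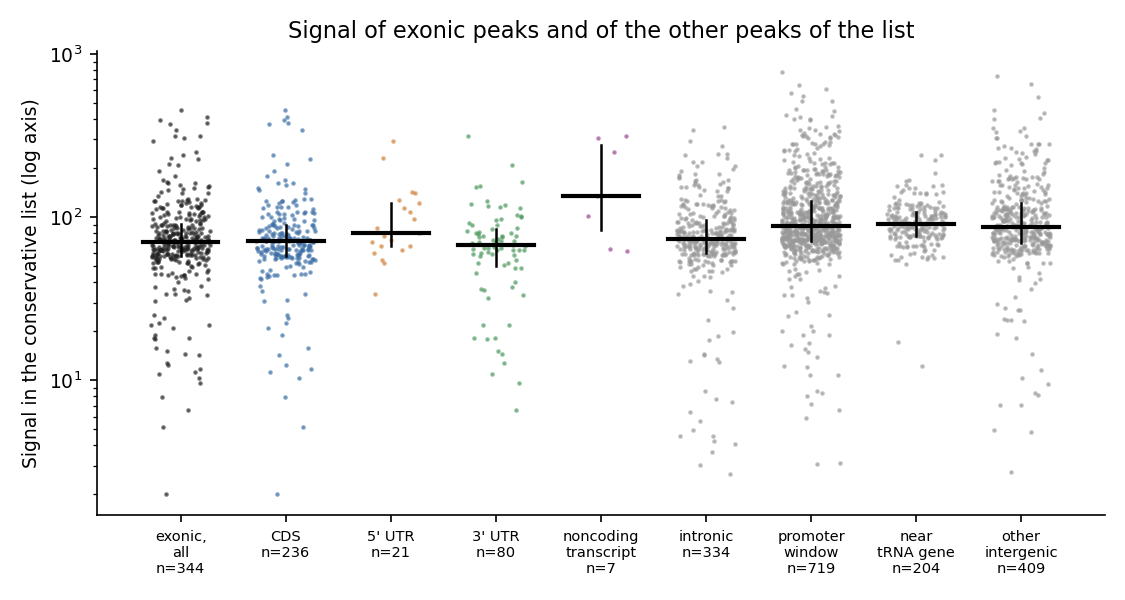
Signal of each peak in the conservative list, on a log axis, for the 344 exonic peaks, their 4 classes and the 4 other places a summit could lie. Thick bars are medians and thin bars span the quartiles; the exonic median of 70.95 lies under that of promoter-window peaks at 88.45, and the ranges overlap.

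The strongest coding-sequence peak was at dos-3, which encodes a protein related to Delta and OSM-11. It spanned chrIII:835755-836220 with a signal of 452, and its summit lay in the last of 11 exons, 227 bp before the gene's 3′ end. The overlapping peak had a signal of 233 in the ranked list of replicate 1 and 196 in that of replicate 2. Signals are read within a list, so the lists of the replicates are set side by side and not compared in size. T28F4.4, which encodes a protein with a Pumilio homology domain, followed with 412, and with 237 in replicate 1 and 166.5 in replicate 2. F57F5.3 had 392 (210.1 and 151), in the last of 4 exons. suro-1, a putative carboxypeptidase gene, had 379.6 (199 and 180.5), and best-18, of the bestrophin family of chloride channels, had 374 (178 and 160.3). Each of these 5 was in the thresholded list of both replicates.

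Further down, stdh-1, a putative steroid dehydrogenase gene, had a signal of 341 (155 in replicate 1 and 134 in replicate 2). Its summit lay 131 bp before the gene's 3′ end. The C-type lectin gene clec-221 had 242 (127 and 100.5), and pks-1, which encodes a large multidomain enzyme of the fatty acid synthase type, had 227 (117 and 109). The pks-1 summit was in exon 22 of 30, 12406 bp before the 3′ end, far from either end of the gene. lelo-2, annotated with a transporter domain of the major facilitator superfamily, had 211 (81.7 and 105), and F25B5.5 had 191 (71.3 and 117.5). The Notch receptor gene lin-12 had 179 (79.6 and 81.9), with the summit in its last exon, and F19B2.5, with a helicase-related SNF2 domain, had 168 (64.4 and 94.7). All of these were in the thresholded lists of both replicates.

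In the 3′ UTR, nra-1, which encodes a protein associated with nicotinic acetylcholine receptors, had the strongest peak with 313 (144 in replicate 1 and 119 in replicate 2). Its summit lay 98 bp before the gene's end. K07H8.8, of the sulfotransferase family, had 208 (101.2 and 89.7), and epic-3, related to an epicuticle protein, had 164 (87.6 and 75.05). T19A5.3 had 154 (64.55 and 78.0), and C05D11.8, whose sequence is shown above, had 153 (96.8 and 64.8). These 5 were in both thresholded lists, against 15 of all 80 peaks in the 3′ UTR.

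In the 5′ UTR, the strongest peak was at C34C12.2, which encodes a protein with a fibronectin type III domain, with 294 (196 in replicate 1 and 102 in replicate 2). pck-2, a gene of phosphoenolpyruvate carboxykinase, the enzyme of an early step of gluconeogenesis, had 232 (128 and 83.3). The 50 bp at the pck-2 summit had 100 further exact copies in the genome, so its reads cannot be placed by that stretch alone. gldi-8, a C2H2 zinc finger gene, had 143 (72.4 and 71.8), T28F4.5 had 141 (50.7 and 99.7), and pcf-11, which encodes a factor of messenger RNA cleavage and polyadenylation, had 127 (69.4 and 57.8). Of the 21 peaks in the 5′ UTR, 15 lay in the window around the 5′ end of an alternative transcript of a protein-coding gene. The same was true of 32 of the 236 in coding sequence and 2 of the 80 in the 3′ UTR, and of 50 of all 344 (14.5%).

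The gene tos-1, named as a target of splicing, held 5 exonic peaks. Their signals were 314.5, 306, 251.5, 135 and 102, and all lay in exons of noncoding transcripts of the gene. In replicate 1 the overlapping peaks had signals from 68.9 to 193, and in replicate 2 from 34.6 to 156. The first 4 were in both thresholded lists, and the weakest was in that of replicate 1 alone.

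The share of exonic peaks found in the list of each single library was smaller than that of the whole list. A thresholded peak of replicate 1 overlapped 98 of the 344 (28.5%, 23.8 to 33.6), against 40.2% of all peaks, and one of replicate 2 overlapped 120 (34.9%, 29.85 to 40.2), against 41.1%. Both overlapped 64 (18.6%, 14.6 to 23.1), against 27.0%, and neither overlapped 190 (55.2%, 49.8 to 60.6), against 45.7%. The list of the series was made from the same libraries, so these shares describe which library carried a peak, and the differences were not tested. In the lists ranked without a threshold, 341 exonic peaks overlapped a peak of replicate 1 and 342 one of replicate 2. Their median ranks were 1482 of 43564 and 1422 of 43966.

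Overlap was highest at high signal and did not fall steadily below it. All 20 of the strongest exonic peaks were in both thresholded lists, as were 28 of the next 80, 3 of the next 100 and 13 of the last 144. Of the 64 in both lists, 14 lay within 250 bp of a stronger summit, so the overlapping library peak can be that of the stronger summit. Without the 39 exonic summits so placed, 50 of 305 (16.4%) were in both lists, and no like share was taken over all peaks. Over peaks of the same signal range as the exonic peaks ranked 21 to 100, the share in both lists was 35.0% for exonic peaks. It was 31.7% for intronic, 39.8% for tRNA-proximal, 42.1% for promoter-window and 45.5% for other intergenic peaks. In the range of the 20 strongest it was 95.65%, 100%, 97.25% and 96.61% for these 4 places, so the full exonic overlap there is not set apart. In the range of the last 144 it was 9.03% for exonic peaks. The 4 other places there had 4.39%, 10.53%, 5.085% and 9.76%, in the same order. These shares were not tested. By class, both lists held 37 of 236 peaks in coding sequence (15.7%), 15 of 80 in the 3′ UTR and 8 of 21 in the 5′ UTR. Across the 339 exonic peaks with a value in both ranked lists, Spearman's rho of the signals was 0.404, against 0.543 across 1980 peaks of the whole list. Pearson's r of the log10 signals was 0.732 for the exonic peaks and 0.768 for the whole list, which lie closer together. The peaks share their list and its selection, so rho and r are descriptions.

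**Figure D2:**
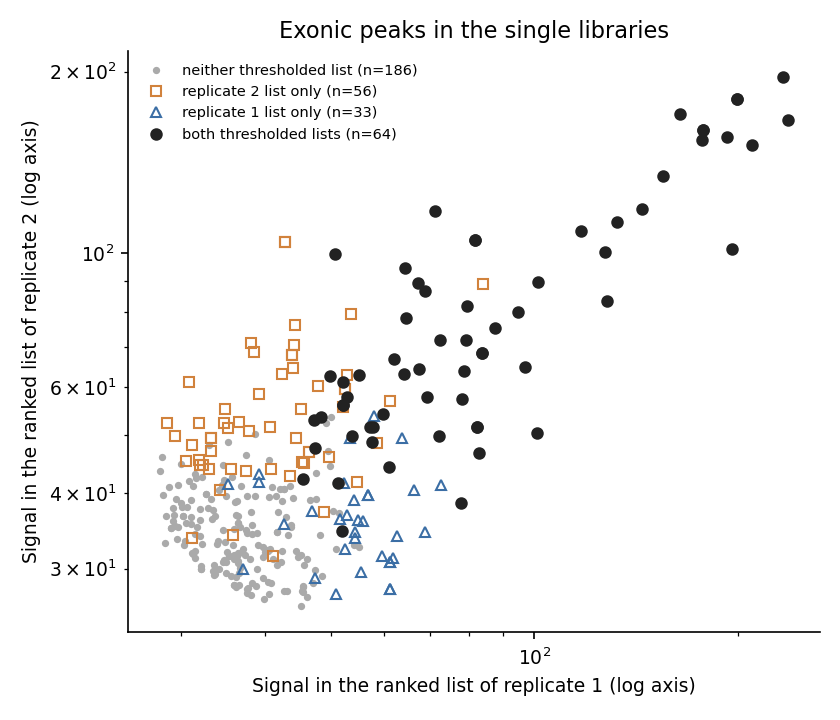
Signal of the overlapping peak in the ranked list of replicate 1 (horizontal) and replicate 2 (vertical), both log axes, for the 339 exonic peaks with a value in both. Symbols give the thresholded lists that held the peak; the strongest sites in the upper right were in both lists and the dense group at low signal was mostly in neither.

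**Figure D3:**
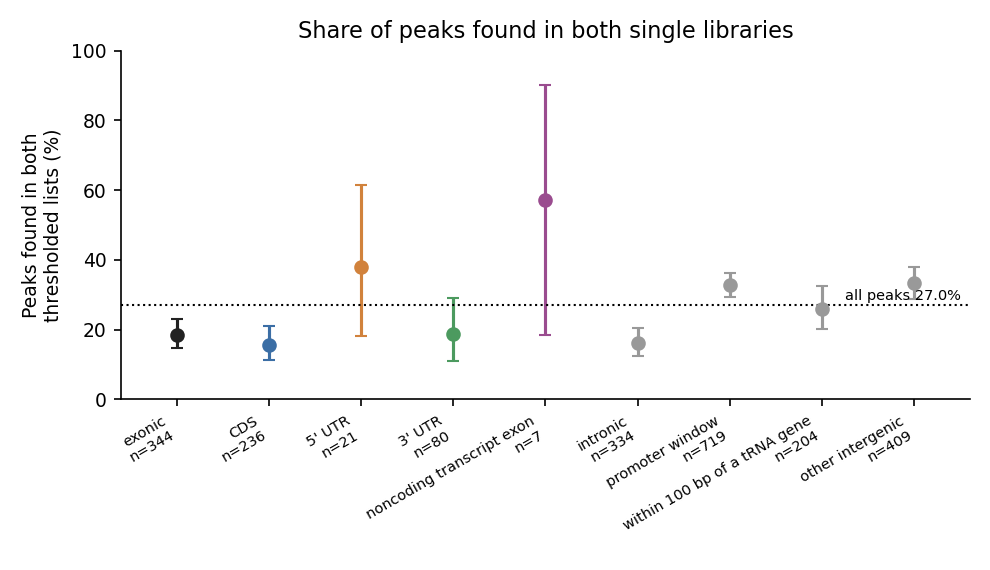
Share of peaks, in percent, that overlapped a thresholded peak of both replicates, by class of exonic peak and by place of the other peaks, with exact binomial 95% intervals. The exonic share of 18.6% lies under the 27.0% of all peaks, drawn as a dotted line, and close to the 16.2% of intronic peaks.

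The 344 peaks lay in 291 genes, 1.57% of the 18528 protein-coding genes with eligible exon sequence, and 40 genes held more than 1. mnk-1, which encodes a kinase that acts downstream of MAP kinases, held 5 with signals of 103, 95.6, 92.2, 86.8 and 17.9. Of these, 1 was in both thresholded lists. idh-1, a gene of an NADP-dependent isocitrate dehydrogenase, held 3 with 129.5, 69.3 and 42. mmcm-1, which encodes methylmalonyl-CoA mutase, held 3 with 74.2, 51.5 and 47.2, nadk-2, an NAD kinase gene, 3 with 70.2, 37.6 and 10.3, and W06H8.6 3 with 63.95, 44.6 and 15.2.

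The vitellogenin genes, which encode the yolk proteins that the intestine of the adult hermaphrodite secretes for the oocytes, held 8 exonic peaks in 3 of the 6 genes. The peaks of vit-6 had signals of 107, 61.2 and 33.9, those of vit-2 had 96.9, 43.9 and 5.17, and those of vit-5 had 107 and 24.2. The strongest vit-6 peak had 61.0 in replicate 1 and 44.3 in replicate 2, and was in both thresholded lists. The strongest vit-2 peak had 39.2 and 58.5 and was in that of replicate 2 alone. The strongest vit-5 peak had 53.4 and 49.4 and was in that of replicate 1 alone. The 50 bp at either vit-5 summit had 2 further exact copies in the genome.

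Of 33 lists of genes chosen by name, 25 had an exonic peak in at least 1 gene and 8 had none. For comparison, 1.57% of all eligible genes held such a peak. The highest shares were those of the vitellogenins, 3 of 6, and of the vacuolar ATPase, 2 of 18 (11.1%). The lists described next are a part of the 25 and were not tested. The list of chromatin regulators and SynMuv genes had 5 of 109, led by lin-52, whose product is part of the DREAM complex, set-12 and hda-2. The C2H2 zinc finger list had 4 of 65, led by snai-1, ztf-22 and lin-29, and the chaperone list had 3 of 55, hsp-1, hsp-17 and dnj-1. lin-52 had a signal of 157 (94.6 in replicate 1 and 80.0 in replicate 2) and was in both thresholded lists. hsp-1, a constitutive Hsp70 gene, had 89.75 (62.7 and 34.0) and was in that of replicate 1 alone, whereas hsp-17 at 80.8 (41.1 and 31.5) was in that of replicate 2 alone.

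Several lists had 0 or 1 gene with an exonic peak. For the lists named next, of 14 to 99 eligible genes, that is not set apart from the 1.57% of all eligible genes. Some larger lists lay under that share, with chemoreceptors at 1 of 1355 (0.0738%) and the F-box and MATH/BTB list at 1 of 444 (0.225%). None of these shares was tested. Of the 81 genes of cytosolic ribosomal proteins, 32 had a peak in their own promoter window and 1 of the 48 eligible, rpl-3, an exonic peak. The rpl-3 peak had a signal of 147 (42.7 in replicate 1 and 104 in replicate 2), was in the thresholded list of replicate 2 alone, and lay in the last exon, 142 bp before the gene's end. Of the genes of the respiratory chain and ATP synthase, 17 of 73 had a promoter peak and 0 of 50 an exonic one. Of the genes of DNA replication, repair and the cell cycle, 12 of 102 had a promoter peak and 0 of 99 an exonic one. The lists for germ line (78 eligible genes), muscle structure (54) and histones (14) also had 0. Over all, 43 of the 291 host genes (14.8%) had a peak in their own promoter window too, against 780 of the 18528 eligible genes (4.21%).

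Enzymes of metabolism recurred among the hosts. A list made after the values had been seen, of genes whose RefSeq product names an oxidoreductase, ligase, transferase or carbon-carbon lyase of metabolism, had 26 of 659 genes with an exonic peak (3.94%, against 1.57%). Of all 706 genes of the list, 70 (9.915%) had a peak in their own promoter window, against 4.45% of all protein-coding genes. The higher share is thus not one of exonic peaks alone. The list is a description of these peaks. Beside stdh-1, pck-2 and pks-1 it held sodh-2, an alcohol dehydrogenase gene (signal 162, with 67.3 in replicate 1 and 89.2 in replicate 2). It also held qns-1, for NAD synthesis (150, with 53.6 and 79.2), and fat-6, a delta-9 fatty acid desaturase gene (141, with 67.5 and 64.3). Both phosphoenolpyruvate carboxykinase genes were present, pck-1 with a signal of 116 (53.7 and 49.9).

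Along the gene, exonic peaks exceeded their share of bases at both ends, and by number most of these lay at the 3′ end. The last exon held 155 of the 344 (45.1%) but 21.8% of the eligible exon bases, the first exon held 27 (7.85%, against 3.72%), and internal exons held 46.2% against 74.0%. The last 2 of 10 equal segments of the spliced transcript held 17.7% and 16.3% of the peaks, against 9.94% and 9.16% of the bases, and the first held 6.69% against 3.495%. Within 500 bp of the host gene's own 3′ end lay 155 peaks (45.1%, 39.7 to 50.5), against 23.4% of the bases. Of these, 80 were in coding sequence, so the position was not that of the 3′ UTR alone. Among the 20 strongest exonic peaks, 11 lay within these 500 bp, and among the strongest 100 there were 54. Coding-sequence peaks in a last exon had a median signal of 81.6 (n = 70) and others 66.7 (n = 166).

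**Figure D4:**
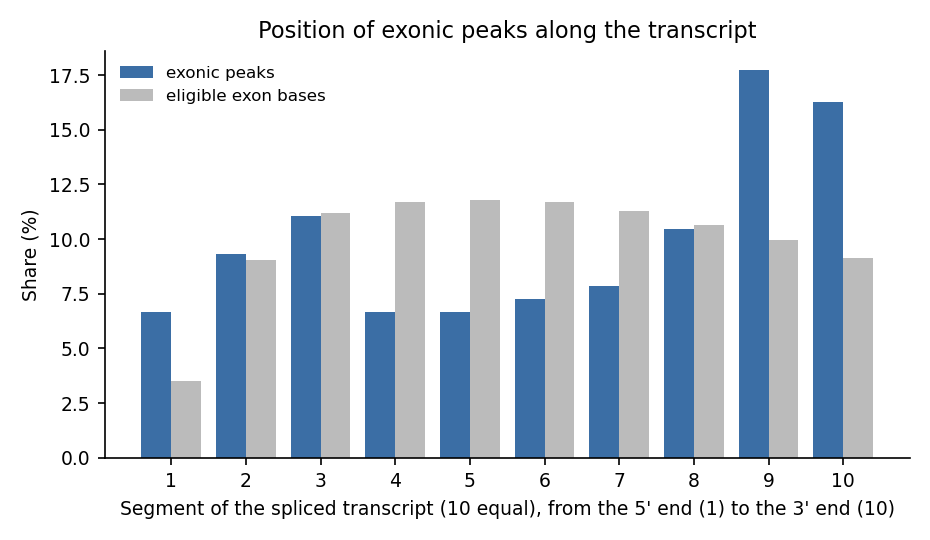
Share of the 344 exonic peaks (blue) and of eligible exon bases (grey), in percent, over 10 equal segments of the spliced transcript from the 5′ end (1) to the 3′ end (10). The last 2 segments hold 17.7% and 16.3% of the peaks and 9.94% and 9.16% of the bases, and the first holds 6.69% and 3.495%.

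The density of exonic peaks was highest in exons that lie just past the 3′ end of a neighbouring gene. In 98 of the 344 (28.5%, 23.8 to 33.6) the nearest 3′ end of a protein-coding gene belonged to another gene and lay up to 500 bp upstream of the summit, in that gene's direction. Such positions made up 6.28% of eligible exon bases, which gives 67.4 peaks per Mb. In the last 500 bp before the nearest 3′ end there were 73 peaks, or 17.0 per Mb, and elsewhere 173, or 9.95 per Mb. In 84 of the 98 the host lay on the opposite strand from the neighbour, so that the genes pointed at each other. In 69 the summit was in the host's last exon. The rule itself drops summits from 1000 bp upstream to 200 bp downstream of any gene's 5′ end, which leaves fewer hosts on the same strand. No share of eligible bases was taken beside these 2 counts, so they are not set apart from the rule. Coding sequence held 64 of the 98 and the 3′ UTR 30. The median signal of the 98 was 78.9, and 23 (23.5%) were in both thresholded lists, against 27.0% of all peaks.

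In bins of 200 bp, the density was 20.3 exonic peaks per Mb of eligible exon in the last bin before a 3′ end. It was 70.1 in the first bin past it, 85.7 in the next and 21.9 in the third, with 5.50 in the fifth. In the first 2 bins past an end there were 45 and 47 exonic, 86 and 104 intergenic and 8 and 29 intronic peaks. The intronic counts were 8 to 10 in each bin from 2000 to 1000 bp before an end. They were 2 to 7 in each of the bins nearer the end. Intron bases per bin were not counted, so the intronic counts are not densities. All 3 kinds together had 57.4 and 80.9 peaks per Mb of sequence outside promoter windows in the first 2 bins past an end. Of the intergenic peaks, 207 of 409 (50.6%) lay up to 500 bp past a 3′ end, and of the intronic peaks 41 of 334 (12.3%). No share of intergenic or intronic bases at such positions was taken, so these 2 shares cannot be read as an excess. The higher density past 3′ ends was seen in the data first and then counted, and no test was made.

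**Figure D5:**
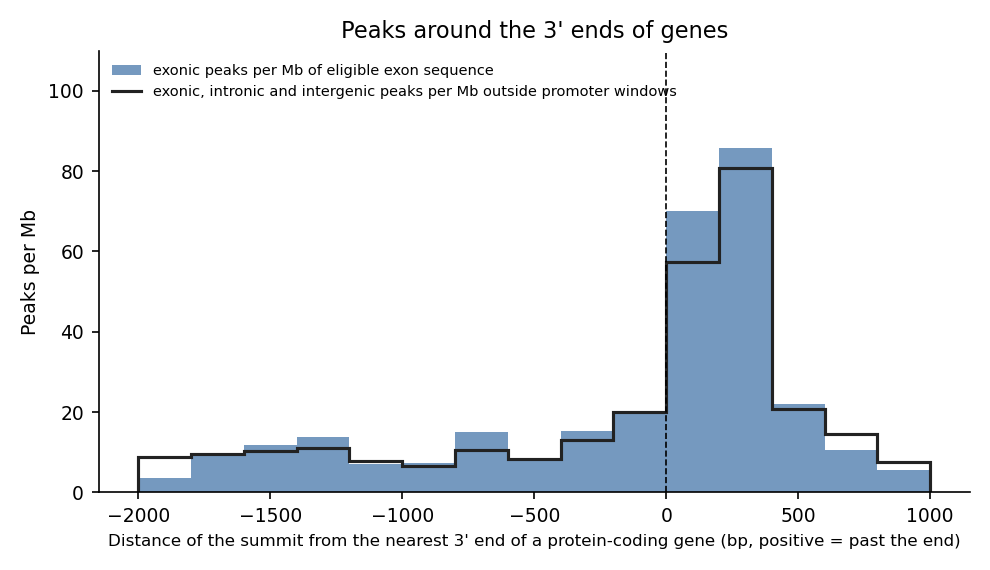
Peaks per Mb by distance of the summit from the nearest 3′ end of a protein-coding gene, in bins of 200 bp, with positive distances past the end. Filled bars are exonic peaks per Mb of eligible exon sequence and the line is exonic, intronic and intergenic peaks per Mb of sequence outside promoter windows and tRNA surroundings; both are highest from 0 to 400 bp past the end.

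Of the 20 strongest exonic peaks, 6 lay up to 500 bp past another gene's 3′ end. A further 6 lay in the last 500 bp before the nearest 3′ end, and 8 lay elsewhere. Some of the first 6 are described next, with sodh-2, which ranked 21 among the exonic peaks. The dos-3 summit lay 164 bp past the end of zip-2, a bZIP transcription factor gene, and the suro-1 summit 237 bp past that of pck-2. The best-18 summit lay 112 bp past the end of cts-1, the citrate synthase gene, the F25B5.5 summit 176 bp past that of ubq-1, which encodes polyubiquitin, and the sodh-2 summit 144 bp past that of adh-1. The 98 peaks had 89 such neighbours. These included 4 genes of the vacuolar ATPase, vha-2, vha-5, vha-13 and vha-19 (4.49% of the neighbours, against 0.105% of all protein-coding genes). There were 3 of cytosolic ribosomal proteins, rpl-22, rpl-23 and rps-16 (3.37%, against 0.406%). A further 12 were in the list of metabolic enzymes, among them aco-2, dhs-28 and hadb-1 (13.5%, against 3.53%). These shares were not tested. Other lists held fewer neighbours, and many held 0, among them chemoreceptors (6.83% of all genes) and the respiratory chain and ATP synthase (0.366%). Here and below, all protein-coding genes are a wider set than those whose 3′ end could lie beside an eligible exon. The named neighbours were picked after their values were seen. Of the 89 neighbours, 15 (16.9%, 9.75 to 26.3) had a peak in their own promoter window, of the 89 hosts 6 (6.74%, 2.51 to 14.1), and of all 19973 protein-coding genes 889 (4.45%). The difference between neighbours and hosts was not tested, and their intervals overlap.

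Few exonic peaks held the words that are common in the list. Within 50 bp of the summit, 1 of the 3 words, on either strand, was present at 27 of the 344 (7.85%, 5.24 to 11.2), against 16.4% of all peaks and 21.3% of promoter-window peaks. The words were taken from an earlier description of the same peaks, so the share is no independent evidence. In windows of the same length 400 bp to either side of the summits the share was 5.38%, and over all tiles of that length in eligible exon sequence it was 4.60%. On the strand of the host gene lay 14 matches and on the other strand 13. Peaks with a word had a median signal of 97.0 and those without 70.2. Of the 27, 11 were in both thresholded lists, against 18.6% of all exonic peaks and 27.0% of the whole list. Overlap was highest at high signal, so this count is not set apart from signal. No such share was taken for peaks with a word over the whole list.

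The 5′ UTR peaks stood highest, with a word at 7 of 21 (33.3%, 14.6 to 57.0), against 17 of 236 in coding sequence (7.20%) and 3 of 80 in the 3′ UTR (3.75%). Their tiles held a word in 4.66%, 4.86% and 2.39%. Of the 7 peaks with a word in the 5′ UTR, all but that of egl-30 lay in the window around the 5′ end of an alternative transcript. In the longest coding transcript, 11 of the 21 peaks of the 5′ UTR lay in an intron or outside. The share is thus not one of peaks away from every transcript start. The full AGACGCAG was at 4 exonic peaks, in the 5′ UTR of M01H9.3, tent-5 and egl-30 and in the 3′ UTR of C05D11.8, of 93 in the whole list, and at 0 of 236 in coding sequence. M01H9.3 had a signal of 98.1 (51.2 in replicate 1 and 41.6 in replicate 2) and tent-5, a poly(A) polymerase gene, 114 (52.9 and 57.7), both in both thresholded lists. egl-30, which encodes a Gq alpha subunit, had 85.7 (39.1 and 41.8) and was in that of replicate 1 alone. Of the 20 strongest exonic peaks, 1 held a word, at best-18, and of the next 80, 15 did (18.75%). Among peaks in the signal range of the exonic top 20, a word was at 28.4% of promoter-window, 26.1% of intronic and 22.0% of other intergenic peaks. In the range of the next 80 it was at 26.6%, 17.1% and 13.8% of them.

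Other words counted had shares close to those of exon tiles. GTTCGA, the core of the tRNA B box, was at 18 exonic peaks (5.23%, against 4.95% of tiles), GAANNTTC, the heat shock element, at 20 (5.81%, against 6.76%) and GAGAGA at 21 (6.10%, against 5.56%). GC content within 50 bp of the summit had a median of 43.6%, against 39.6% for tiles and 37.6% for the flanks. In coding sequence it was 45.5% against 40.6% for tiles, in the 3′ UTR 36.6% against 30.7%, and in the 5′ UTR 50.5% against 35.6%. GC content thus differed in the same direction in each class, and its part in the peak shares was not tested.

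Exonic peaks were spread over all 6 chromosomes. Chromosome III had the highest density, 68 peaks or 20.4 per Mb of eligible exon, and X the lowest, 40 peaks or 10.7 per Mb. The other chromosomes had 13.6 to 16.1 per Mb. The shares on III (19.8%, 15.7 to 24.4) and X (11.6%, 8.44 to 15.5) compare with 14.4% and 16.2% of the eligible bases. Over the whole list X had the most peaks of any chromosome, 363, followed by III with 362, and the others had 309 to 335. The low place of X was thus not that of the whole list, while III stood high among exonic peaks and in the list. Chromosome length was not taken into account for the whole list.

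Most peak intervals had 1 width. Of the 344, 308 were 336 bp wide, 26 were narrower and 10 wider, and the narrower and wider ones were the stronger. The narrower ones had a median signal of 163 and the wider ones 327, against 67.8 at 336 bp, and 19 of the 20 strongest were not 336 bp wide. The interval therefore places a site no more finely than the peak width, and the exon given for a site is that of its summit. The exonic peaks nearest to the promoter window lay 2 bp outside it at lgg-1 (signal 18.1) and 8 bp outside at lin-52 (157) and Y49A3A.3 (126). The nearest excluded summits lay inside it by 3 bp at epic-2 (81.0), 13 bp at F17C11.13 (63.1) and 14 bp at sir-2.2 (117). Within 100 bp of the window's edge lay 20 of the 344.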

How the data were processed

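The deposited files list peaks on ce11, which has the chromosome lengths of WBcel235. The signal of each peak and its score, a scaled irreproducible discovery rate (IDR), are the authors' deposited values. In thresholded lists the lowest score was 830. Peak starts, ends and summits are as deposited. Per the file headers and notes, the main list is conservative and made from both libraries. Aligner and peak caller: not given in the sources used here. Read depth is unknown from these lists, so precision could not be derived from it.

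Exons and gene ends came from Ensembl release 115, with all transcripts of 19973 protein-coding genes. Where transcripts differ, coding sequence was taken before 5′ UTR and 5′ UTR before 3′ UTR. Overlap meant at least 1 bp. Products and sequences came from RefSeq WBcel235. Shares have exact binomial 95% intervals. Python 3.11.15, numpy 2.4.6 and scipy 1.17.1 were used. The rule was tested on simulated data and matched a brute-force search at 600 of 600 positions.

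The members, gene lists and words were chosen with earlier results of these data known. By rule, named genes were those at the 20 strongest exonic peaks, the 5 strongest per class, up to 3 of each gene list (given in part), the 8 with most peaks, and those nearest the window's edges. pck-1, sodh-2, qns-1, fat-6, egl-30, tent-5, M01H9.3, drap-1, vang-1, glb-15 and the neighbouring genes were chosen after their values were seen.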

Additional observations from a re-analysis of the deposited data

How the results depend on the processing

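The exonic share of the list was 17.1%. It was 13.9% to 15.97% in the thresholded lists of single replicates, 14.7% in the other list of the series, 10.9% among the 1005 peaks of highest signal, 12.1% with the wider promoter window and 14.6% with windows at the 5′ ends of all transcripts. The share in coding sequence stayed within its interval under every alternative run. The median signal, as a ratio to that of all peaks, was 0.862. It was 0.898 to 0.901 without 1 replicate, 0.849 in the other list, 0.866 with the wider window, 0.865 with a tRNA distance of 500 bp, 0.865 with peak midpoints, 0.858 with the 5′ ends of all transcripts and 0.858 without summits beside a stronger one. Among the 1005 strongest it was 1.004, so exonic peaks were weaker over the list but not among its strongest 1005, which by construction lack the weak peaks. The share in both libraries was 18.6%. It was 28.5% to 34.9% without 1 replicate and 45.5% among the 1005 strongest. It was 14.5% with at least 50% of the peak covered, 12.8% with summits within 100 bp and 98.5% with the ranked lists. For all peaks of the list, the share was 40.2% to 41.1% without 1 replicate. It was 23.3% with at least 50% covered and 23.7% with summits within 100 bp, and 1980 of the 2010 were in both ranked lists. The share with a word was 7.85%. It was 3.78% within 25 bp, 13.1% within 100 bp and 1.16% for AGACGCAG, where the whole list had 8.76%, 25.2% and 4.63%. Among the 1005 strongest it was 16.4%. No share over all of the 1005 strongest peaks was taken for words or for both libraries. The share past a neighbour's 3′ end was 28.5%. It was 34.2% to 34.9% without 1 replicate and 39.1% among the 1005 strongest. The alternatives on this share, on close summits and on protein-coding transcripts alone were chosen after seeing the data. The longest coding transcript stood in for a canonical one and changed the class of 4 of the 20 strongest peaks, 3 at tos-1 and 1 at pck-2. No paired analysis was possible because there was 1 group. Causes of these changes were not tested. Without read depth, input or untagged libraries, and with 2 replicates, peaks near the threshold are the least certain.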
